A study of Mus musculus with 10 samples.

Results

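A rule for higher lung DNA methylation only in mice given Descurainia sophia seed extract (DSE) was met by 2332 of 412413 autosomal windows (0.565%). Each window is 1000 bp long and windows start every 500 bp. A window is a member where it had at least 20 methylation calls in all 10 mice, where the lowest DSE mouse lay above the highest of the 6 saline and OVA mice, and where the DSE mean was at least 8 percentage points above the saline mean and above the OVA mean. The difference between DSE mice and the other mice therefore chose the members, and its size is given as a description with no test. Members that overlap or touch form 1876 regions, of which 1428 hold 1 window, 440 hold 2 and 8 hold 3. The mirror-image rule, lower in DSE mice only, was met by 1170 windows, and 1373 windows were higher in OVA mice only. Without the 8-point threshold, every DSE mouse lay above the 6 others in 10901 windows and below them in 4839.

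The series measured methylation in whole lung by Methyl-seq, in which probes capture chosen genomic regions before bisulfite treatment turns unmethylated cytosines into thymines. All mice were female BALB/c, 8 weeks old when purchased. The saline group (n = 3) received no allergen. The OVA group (n = 3) was sensitized with 50 µg ovalbumin (OVA) in alum and challenged through the nose with 25 µg for 4 days from Day 12, a common model of allergic asthma. The DSE group (n = 4), labelled Herb, had the same sensitization and challenge. It was given DSE by mouth at 200 mg/kg from Day 9 to Day 15. The methods also name an oral vehicle without stating which of these mice received it. The sample numbers in the labels are all higher for DSE mice than for the other mice, and their meaning is not given. Any handling that differed with the groups cannot be told apart from the treatment. No mice received the extract without OVA, so the extract was measured on the allergic background alone. The deposited tables do not separate cell types, and in whole lung a different mix of cells and a different methylation level per cell cannot be told apart.

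Methylation of cytosines in CpG dinucleotides is copied when cells divide, and most CpGs of a mammalian genome are methylated. CpG-rich promoters are usually unmethylated, while enhancers and the flanks of CpG islands often hold intermediate levels that differ between cell types. DNMT enzymes add the mark and TET enzymes oxidize it towards removal. Dense promoter methylation is commonly found at silent genes, but the relation to expression is not fixed in gene bodies and intergenic DNA.

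The 8 stretches that follow show how sparse or dense the CpGs are in some of the windows named below. They are 200 bases each, on the plus strand of the GRCm38.p6 sequence from RefSeq (mm10 coordinates), and every CG is in capitals. Each is the part of its window with the most CpGs outside untranslated exons. The first 4 come from the regions with the largest difference, the next 3 from the promoter regions with the largest difference, and the last from the promoter of Tet1.
upstream of Il21, chr3:37271074-37271273: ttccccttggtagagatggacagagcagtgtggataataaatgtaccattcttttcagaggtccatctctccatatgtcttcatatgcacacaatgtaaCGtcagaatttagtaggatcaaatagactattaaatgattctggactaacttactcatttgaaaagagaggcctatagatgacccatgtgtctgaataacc
Cd109 intron 26, chr9:78701071-78701270: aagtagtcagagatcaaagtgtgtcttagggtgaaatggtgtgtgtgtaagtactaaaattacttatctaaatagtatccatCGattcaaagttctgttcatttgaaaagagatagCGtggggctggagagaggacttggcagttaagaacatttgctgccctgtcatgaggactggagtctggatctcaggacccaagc
Rad51b intron 7, chr12:79359003-79359202: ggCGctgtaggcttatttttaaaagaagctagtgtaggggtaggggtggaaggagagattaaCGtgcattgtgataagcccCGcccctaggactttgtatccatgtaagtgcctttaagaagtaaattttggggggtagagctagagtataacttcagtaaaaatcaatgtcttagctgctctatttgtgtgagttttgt
Igsf21 intron 1, chr4:140234555-140234754: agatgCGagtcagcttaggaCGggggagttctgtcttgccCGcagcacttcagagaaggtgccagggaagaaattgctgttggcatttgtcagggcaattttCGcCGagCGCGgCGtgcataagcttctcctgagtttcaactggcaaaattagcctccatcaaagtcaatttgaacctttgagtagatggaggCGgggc
Fam234b promoter, chr6:135197744-135197943: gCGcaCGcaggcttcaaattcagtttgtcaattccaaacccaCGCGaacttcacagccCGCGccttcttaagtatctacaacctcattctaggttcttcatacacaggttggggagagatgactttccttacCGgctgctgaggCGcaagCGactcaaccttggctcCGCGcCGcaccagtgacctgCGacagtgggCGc
Ldah promoter, chr12:8207438-8207637: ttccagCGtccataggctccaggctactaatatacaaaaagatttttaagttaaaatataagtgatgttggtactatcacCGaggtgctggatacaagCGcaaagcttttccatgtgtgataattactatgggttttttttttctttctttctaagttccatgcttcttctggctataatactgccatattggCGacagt
Adck1 promoter, chr12:88359521-88359720: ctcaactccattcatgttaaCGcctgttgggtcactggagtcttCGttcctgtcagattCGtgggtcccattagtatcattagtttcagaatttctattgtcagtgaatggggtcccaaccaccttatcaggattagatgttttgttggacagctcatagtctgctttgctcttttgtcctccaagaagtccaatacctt
Tet1 promoter, chr10:62887330-62887529: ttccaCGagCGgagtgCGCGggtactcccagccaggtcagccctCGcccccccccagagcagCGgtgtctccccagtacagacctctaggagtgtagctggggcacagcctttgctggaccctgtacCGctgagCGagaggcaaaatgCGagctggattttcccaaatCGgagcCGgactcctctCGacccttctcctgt
The Il21 stretch holds 1 of only 2 CpGs in its window, and the Cd109 stretch 2 of 3. Those of the Fam234b and Tet1 promoters hold 14 and 12 CpGs.

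Across all members the DSE mice lay above the others by rule, and the saline and OVA mice overlapped. Mean methylation of the member windows was 31.5, 31.8 and 32.9% in the saline mice, 30.02, 33.1 and 31.7% in the OVA mice, and 46.6, 45.03, 47.4 and 44.2% in the DSE mice. Over all 412413 windows the means were 50.9 to 51.4%, 51.8 to 52.7% and 51.6 to 52.8%, so the DSE and OVA mice overlapped there, both above the saline mice. The DSE mean exceeded the higher of the other means by a median of 10.8 points. In 160 members it did so by at least 20 points and in 31 by at least 30. The lowest DSE mouse stood a median of 3.71 points above the highest of the other 6 mice. DSE mice spread over a median of 7.53 points within a member, and the 6 other mice over 10.2 points.

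The largest difference was in an intergenic region 38364 bp upstream of Il21, the gene of a T helper cell cytokine, at chr3:37270501-37272000. In its best window methylation was 6.25, 2.27 and 23.9% in saline mice, 5.0, 0 and 2.86% in OVA mice, and 63.5, 52.7, 66.0 and 53.4% in DSE mice. Every DSE mouse was above 50% there, and saline replicate 3 was well above the other saline mice. The window had 32 to 67 calls in the saline and OVA mice and 146 to 252 in the DSE mice.

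Intron 26 of Cd109, which encodes a membrane protein that binds TGF-beta, was next (chr9:78700501-78701500). No saline mouse had a methylated call there among 118 calls in all, which allows a level of up to 2.54%, and the OVA mice read 0, 2.7 and 0%. The DSE mice read 39.4, 48.8, 47.1 and 50%. Intron 7 of Rad51b, a gene of recombinational DNA repair, had a similar shape (chr12:79359001-79360000), with 0.8, 0.667 and 6.32% in saline mice, 1.67, 0 and 0% in OVA mice and 57.3, 40.6, 43.6 and 44.1% in DSE mice. Both sites were close to unmethylated in 6 mice and at an intermediate level in the 4 DSE mice.

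Intron 1 of Igsf21, a synaptic adhesion gene, started from a higher and more variable level (chr4:140234501-140235500). Saline mice read 37.5, 19.05 and 13.8%, OVA mice 12.1, 47.2 and 36.4%, and DSE mice 75, 84.0, 76.3 and 64.6%. The window had only 21 to 80 calls per mouse.

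Among the other regions with the largest differences were introns of Cadm1, a cell adhesion gene, and of Ephx1, the microsomal epoxide hydrolase that handles reactive epoxides. The Cadm1 window averaged 7.48 ± 5.51% (SD, n = 3) in saline mice, 9.67 ± 11.9% (n = 3) in OVA mice and 48.4 ± 6.18% (n = 4) in DSE mice. The Ephx1 window averaged 15.1 ± 9.09%, 14.5 ± 5.13% and 53.5 ± 6.32% in the same order. A window over exons 4 and 5 of Adgb, which encodes androglobin, had no methylated call in any of the 6 saline and OVA mice (0 of 241 calls, which allows up to 1.24%) and 44.6, 32.4, 40.3 and 35.4% in the DSE mice. The remaining 5 of the 12 were intergenic, among them a window 2872 bp from the start site of Gdf6, a ligand of the bone morphogenetic protein family, at 0.813 ± 1.41%, 3.03 ± 3.31% and 38.4 ± 8.32%. Across the 12 regions the DSE means ran from 38.2 to 74.98%, and none reached full methylation.

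**Figure D1:**
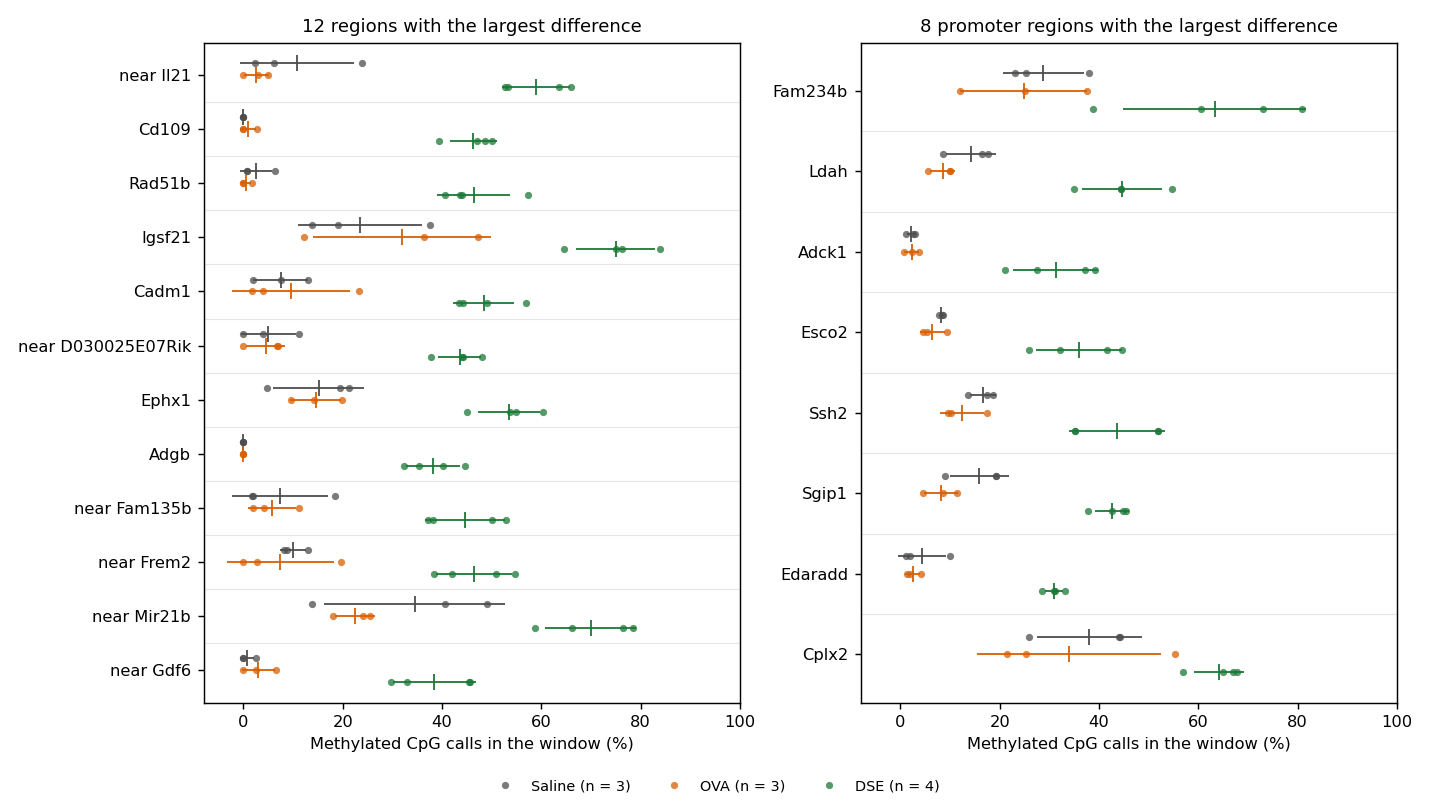
Methylated share of CpG calls (horizontal axis, percent) in each mouse for the 12 regions with the largest difference (left) and the 8 such promoter regions (right). Points are mice, and vertical ticks with lines are the mean and SD of the saline (n = 3), OVA (n = 3) and DSE (n = 4) groups. The regions were chosen on this difference, so the separation of the DSE points is fixed by the choice. The DSE means stop between 30.9 and 74.98%.

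A promoter window, one within 1000 bp of a RefSeq start site, made up 552 members (23.7%, 95% Wilson interval 22.0 to 25.4%, which covers counting error alone), beside 19.7% of all windows that could be members. The interval takes overlapping windows as independent and is therefore too narrow. In windows that do not overlap the share was 23.6%, beside 19.7%. Of windows lower in DSE mice only, 8.55% were in promoters, and of those higher in OVA mice only 8.67%. In saline mice 52138 of 81307 promoter windows were under 20%, where the 8-point threshold limits losses but not gains. In these began 267 members, 2 of the lower windows and 8 of those higher in OVA mice only. Why the promoter shares differ was not tested. Introns held 28.4% of members and 30.1% of all windows, exons 8.02% and 13.7%, and intergenic DNA 39.9% and 36.5%. These promoter members belonged to 535 of 15658 protein-coding genes with a promoter window measured. In 132 of the promoter members the midpoint lay within 500 bp of the start site, and in 315 it lay upstream. Their median distance from the start site was 768 bp, against 591 bp for all promoter windows, and they were poorer in CpGs (median 17, against 27) and in GC (44.1%, against 51.8%).

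The promoter windows with the largest differences came from genes of varied function. The midpoint of that of Fam234b lay 487 bp upstream of the start site, so the window holds little of exon 1. It read 25.3, 38.0 and 23.0% in saline mice, 37.5, 25 and 11.9% in OVA mice and 73.0, 60.5, 81.0 and 38.7% in DSE mice. DSE replicate 4 lay just above the highest OVA and saline mice there. That mouse had 142 calls in the window, and the other DSE mice had 21 to 76. The promoter of Ldah, a hydrolase of lipid droplets, averaged 14.3 ± 5.0%, 8.51 ± 2.53% and 44.6 ± 8.05% in saline, OVA and DSE mice. The corresponding means for Adck1, an atypical mitochondrial kinase, were 2.19 ± 0.962%, 2.27 ± 1.48% and 31.2 ± 8.48%.

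Edaradd, the adaptor of the ectodysplasin receptor, had the tightest DSE values of these promoters at 30.9, 28.6, 33.1 and 31.1%, with saline mice at 1.96, 10.0 and 1.2% and OVA mice at 1.4, 1.83 and 4.24%. The Sgip1 promoter, of a gene that acts in endocytosis, rested on the most CpGs of the 8 (37) and on 584 to 1118 calls per mouse. It read 9.05, 19.3 and 19.3% in saline mice, 4.55, 11.3 and 8.65% in OVA mice and 44.8, 42.6, 45.4 and 37.8% in DSE mice. Esco2, a cohesin acetyltransferase, Ssh2, a cofilin phosphatase, and Cplx2, a regulator of vesicle fusion, completed the 8, with DSE means of 36.0, 43.6 and 64.2%. Near the start site of Mad2l1, a spindle checkpoint gene, 3 windows of a region that begins upstream were members, and the best of them, in the promoter, averaged 9.35 ± 3.10%, 4.30 ± 2.19% and 25.9 ± 2.66%.

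Members began mostly from low or intermediate methylation. The saline mean of a member had a median of 29.1%, beside 56.7% over all windows. Saline levels of 20 to 40% held 34.9% of members and 13.3% of all windows, and levels under 20% held 31.7% and 22.6%. Only 12 members, 0.515%, started from 80% or more, where 22.4% of all windows lie and where the 8-point difference leaves little room. Per 100 windows, 0.793 were members below 20% in saline mice, 1.49 at 20 to 40%, 0.777 at 40 to 60%, 0.207 at 60 to 80% and 0.0130 above. Among promoter windows the peak at 20 to 40% was higher, with 194 of 9304 windows (2.09%), and 0 of 4777 promoter windows above 80% were members. In 9 members no methylated call was seen in any saline or OVA mouse.

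**Figure D2:**
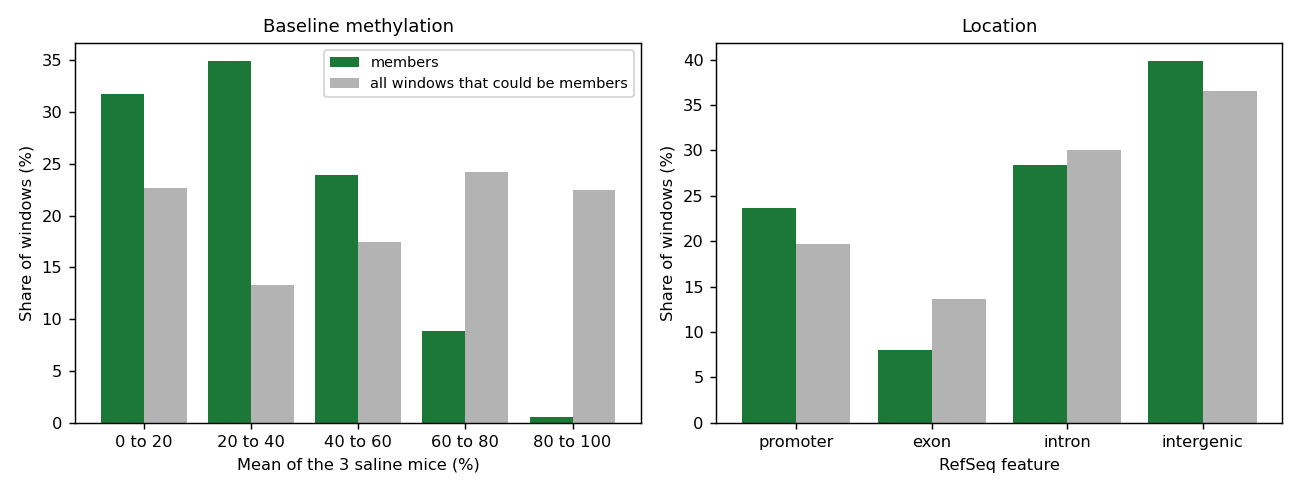
Share of windows (vertical axis, percent) by mean methylation of the 3 saline mice (left) and by RefSeq feature (right), for the 2332 members (green) and the 412413 windows that could be members (grey). Members were most frequent at saline levels of 20 to 40% (34.9% against 13.3%) and rare above 80%, and 23.7% lay in promoters against 19.7%.

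Of the 1876 regions, 440 held 2 members and 8 held 3. The other windows near members were described without any window that met the rule, so these averages cannot show how far the higher level reaches. Windows that shared 500 bp with a member averaged 38.2% in saline, 39.6% in OVA and 42.2% in DSE mice. The next 1545 windows, less than 500 bp away with no shared base, averaged 36.8, 38.0 and 38.0%, so that DSE mice differed from OVA mice by -0.0414 points. From 500 bp to under 1500 bp the difference was 0.0618 points, and beyond 10000 bp -0.202 points. A likelihood ratio test of the calls, described with the OVA comparison, placed 111 of the 2339 windows sharing 500 bp higher in DSE than in OVA mice (4.75%), 7 of the 1545 next windows (0.453%) and 0.476% of windows beyond 10000 bp. The values come from the same mice as the rule. Windows at the edge of a captured stretch, with a neighbour missing on a side, made up 83.02% of members and 77.7% of all windows.

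**Figure D3:**
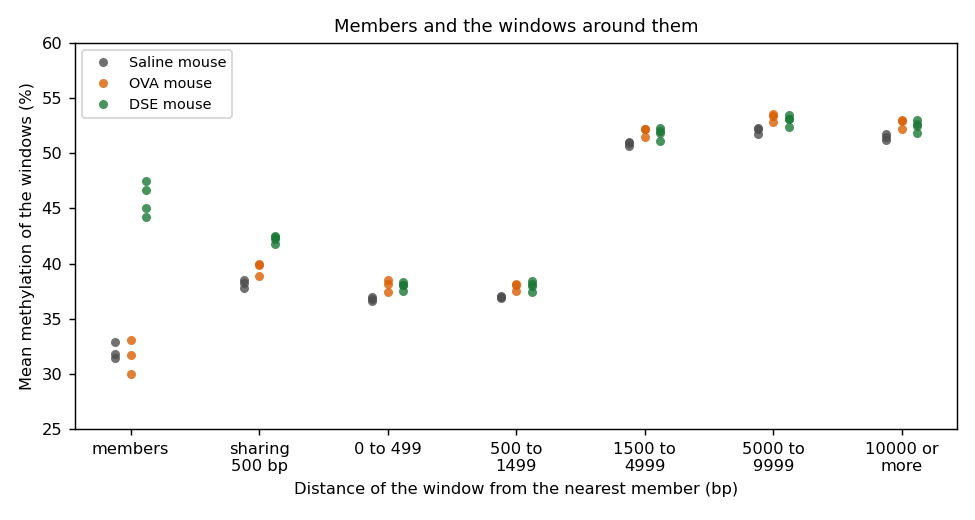
Mean methylation (vertical axis, percent) of the members and of other windows by distance to the nearest member (horizontal axis, bp), 1 point per mouse. DSE mice sit at 44.2 to 47.4% in members, where they were selected, and at 38.0% on average, like the OVA mice, in the non-member windows less than 500 bp away.

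Sequencing depth moved with membership. Per 1000000 calls of a library, members held 2921 to 3002 calls in saline mice, 2506 to 2731 in OVA mice and 3533 to 4200 in DSE mice, and these ranges do not overlap. Methylated calls in members were 825 ± 31.5 (n = 3), 704 ± 77.8 (n = 3) and 1601 ± 198 (n = 4) on the same scale, and unmethylated calls 2143 ± 14.3, 1933 ± 39.5 and 2295 ± 120. The depth of the DSE mice over that of the other mice, each library scaled to its own median, had a median of 1.31 in members and 0.929 over all windows. It was above 1 in 1924 members (82.5%), against 35.7% of all windows, and at least 2 in 399 members. Windows lower in DSE mice only were also deeper in DSE mice, with a median ratio of 1.42. The order of the DSE mice by calls in members, replicates 3, 1, 2 and 4, was also their order by mean methylation in members. The part of depth in the result was not tested.

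Of windows in which DSE mice were at least 2 times as deep, 3.90% were members, and the share fell through 2.31, 1.6 and 0.715% to 0.148% at ratios of 0.75 to 1, with 0.207% below 0.75. In the 12 regions with the largest difference the ratio ran from 0.881 in Igsf21 to 6.94, with 11 of the 12 above 1. Where DSE mice were not deeper (ratio under 1), 408 members remained, and 139 of them (34.1%) were in promoters, beside 24.2% of all windows with such a ratio. The promoters of Tet1, Relb and Adam33, described with the pathway lists, are among these 408, as are Igsf21 and, with a ratio of 0.405, Fam234b.

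**Figure D4:**
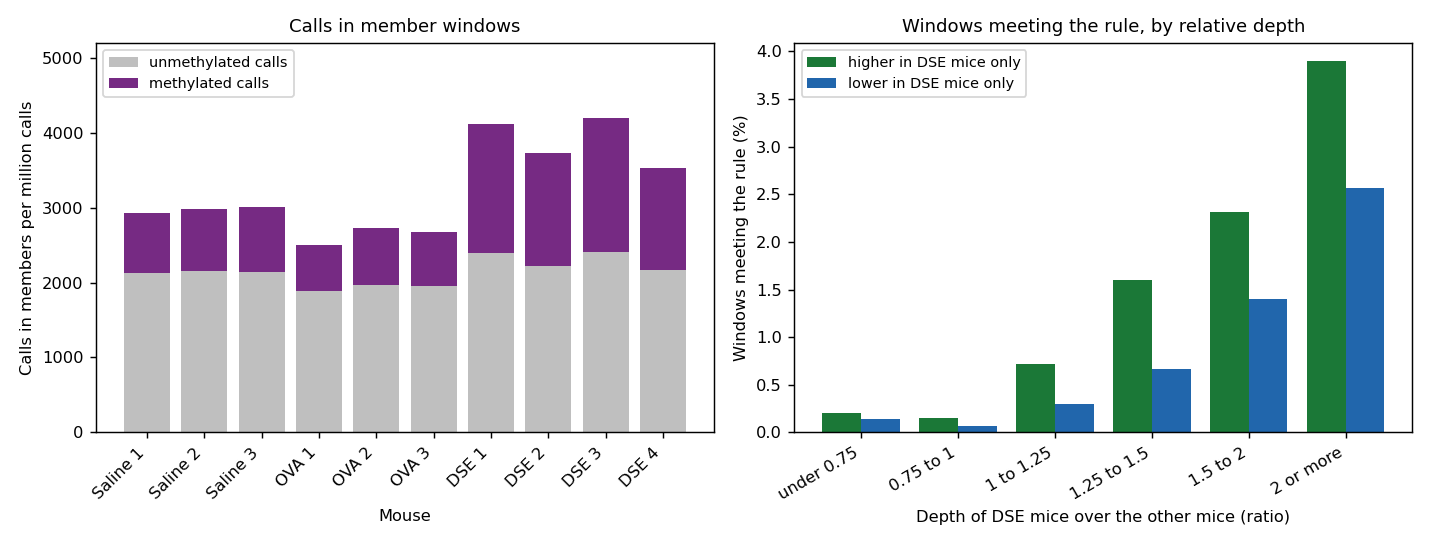
Left, calls in the 2332 members per 1000000 calls of each mouse, split into unmethylated (grey) and methylated (purple) calls. Right, share of windows (percent) that met the rule for higher (green) or lower (blue) methylation in DSE mice only, by the ratio of scaled depth in DSE mice to that in the other mice. DSE mice held 3533 to 4200 calls per 1000000 in members, above every other mouse, and both shares were highest at ratios of 2 or more.

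Members were also poorer in GC than all windows, with a median of 43.0% against 47.4% and a median of 11 CpGs against 13. This was not particular to members. Windows lower in DSE mice only had medians of 42.8% GC and 9 CpGs, and windows higher in OVA mice only 43.7% and 9. From under 40% to at least 55% GC, their shares fell from 0.826 to 0.0348% and from 0.788 to 0.0580%. For members, the share was 1.76% of windows under 40% GC, falling through 0.905, 0.389 and 0.217% to 0.147% at 55% GC or more. The relative depth of the DSE mice followed the same course over all windows, from a median of 1.28 under 40% GC to 0.812 at 55% or more. Among windows with a ratio under 1 the share of members ran from 0.232 to 0.110% over the same classes, a shallower slope. Repeats covered a median of 17.8% of a member and 16.0% of any window. By chromosome the share ran from 0.402% on chromosome 17 to 0.769% on chromosome 3.

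**Figure D5:**
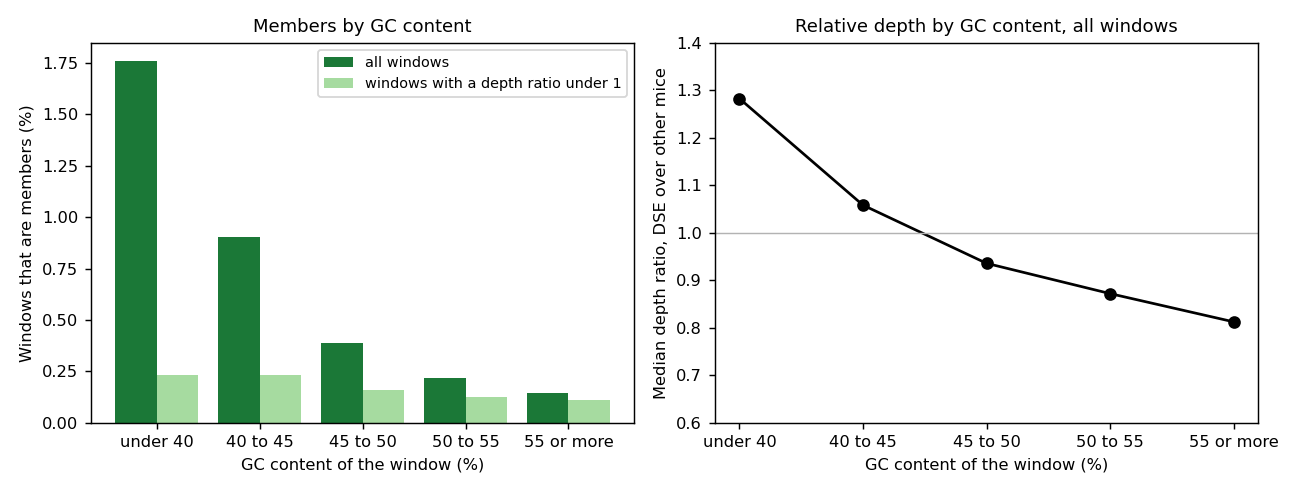
Left, share of windows (percent) that are members by GC content, for all windows (dark green) and for windows with a depth ratio under 1 (light green). Right, median ratio of scaled depth in DSE mice to that in the other mice by GC content, over all windows. The share fell from 1.76 to 0.147% over all windows and from 0.232 to 0.110% at ratios under 1, while the median ratio fell from 1.28 to 0.812.

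The rule did not use the difference between OVA and saline mice, although it holds all 6 of these mice below the DSE mice. For each window, logistic regression was fitted to the methylated and unmethylated calls of both groups and judged by its likelihood ratio. A window was called where the adjusted p was under 0.01 and the pooled levels differed by 10 points or more. Of the members, 28 (1.20%) were called higher in OVA than in saline mice, beside 4.89% of all windows tested, and 36 (1.54%) lower, beside 2.64%. These lower shares are no independent result, since the rule limits how far both groups can differ in a member and members had fewer calls per mouse (median 272, against 447). The median OVA minus saline difference was -0.40 points in members and 0.74 points over all windows, and OVA was the higher in 1039 members. This test takes every call as independent and ignores the spread between mice. With limma, which uses that spread, no window was called at an adjusted p under 0.05, and 258 members (11.1%) had an unadjusted p under 0.05, beside 19.95% of all windows.

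Among the 44 named members, 2 were called between OVA and saline mice. The Il21 window was lower by 10.7 points in OVA mice in pooled calls (adjusted p = 0.0052 in the likelihood ratio test, 0.39 in limma). Without saline replicate 3 the pooled difference was -1.32 points and without OVA replicate 2 it was -9.29 points, both short of the 10-point threshold. A window in intron 3 of Pde4d, the phosphodiesterase that degrades cyclic AMP in airway muscle and leukocytes, was higher by 11.3 points in OVA mice (adjusted p = 5.72e-17 in the likelihood ratio test, 0.11 in limma), and by 9.97 points without saline replicate 2, just short of the threshold. It read 39.0, 34.4 and 37.9% in saline mice, 48.0, 46.8 and 50.6% in OVA mice and 55.7, 60.6, 59.8 and 56.8% in DSE mice, so that the 3 groups formed 3 steps with no overlap.

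For the contrasts the rule used, the same test called 1602 members (68.7%) higher in DSE than in OVA mice, beside 0.887% of all windows. It called 1690 (72.5%) higher in DSE than in saline mice, beside 5.09%. These shares follow from how the members were chosen. Both comparisons share the DSE mice. The rule was still met by 1443 members whichever single mouse was left out. Of the named windows, those of Tet1, Gli2, Znhit6 and Hectd4 were called in neither comparison. Those of Relb and Mbd4 were called only against OVA mice, and that of Pde4d only against saline mice. The windows of Tet1, Gli2, Relb, Prkg1, Znhit6 and Hectd4 did not meet the rule with every choice of left-out mouse.

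The 7 pathway lists together held 31 members in 4724 windows (0.656%), close to the 0.565% over all windows, and nothing is read from this. Windows are counted for a gene where they lie in it, in its promoter or nearest to its start site. Of 21 listed genes of type 2 and alarmin cytokine signalling, the axis of allergic asthma, 19 had a measured window. None of their 309 windows was a member. Listed genes outside the autosomes were not measured. At the low share over all windows, so few windows would hold hardly any member, and nothing is read from this. T helper 1 and NF-kappaB genes had 5 members in 629 windows (0.795%), in 5 of 29 genes. Aryl hydrocarbon receptor and Nrf2 genes had 5 in 461 (1.08%), in 3 of 20 genes. Lung development genes had 6 of 1294 windows (0.464%), airway remodelling genes 3 of 596 (0.503%), and glucocorticoid and cyclic nucleotide genes 8 of 859 (0.931%). Genes of the DNA methylation machinery had 4 of 576 (0.694%). The lists were not tested against the share over all windows.

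Within the DNA methylation machinery the promoter of Tet1, which encodes a 5-methylcytosine oxidase, had 2 member windows. Its best window covers exon 1 (chr10:62887001-62888000) and read 14.3, 17.8 and 15.1% in saline mice, 13.3, 17.0 and 16.6% in OVA mice and 23.4, 23.9, 28.0 and 22.6% in DSE mice, with 1560 to 2355 calls per mouse. The difference was only 8.77 points, and this window was called in neither DSE comparison. The promoter of Zfp57, whose protein binds methylated imprinting control regions, read 32.5, 33.6, 33.0 and 32.2% in DSE mice, with saline mice at 15.1, 22.6 and 18.4% and OVA mice at 14.3, 21.9 and 17.5%. This was a narrow range for DSE mice beside a wide one in the other groups. The shared promoter of Ift122 and Mbd4, the latter a glycosylase of mismatches at CpGs, averaged 34.1 ± 2.42%, 30.6 ± 0.930% and 43.5 ± 1.76%.

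Among inflammatory genes, a window in the promoter of Relb, an NF-kappaB subunit, read 15.03, 15.5 and 21.9% in saline mice, 10.7, 17.1 and 13.7% in OVA mice and 24.2, 27.4, 30.3 and 24.8% in DSE mice. A window over exon 4 of Il1b, an inflammasome cytokine, which is also the promoter window of the antisense gene Il1bos, averaged 50.1 ± 4.79%, 53.4 ± 1.42% and 65.0 ± 3.49% in the 3 groups. For Ifngr1, the receptor of interferon gamma, the window lay 42449 bp from the start site and averaged 53.9 ± 2.47%, 54.0 ± 3.50% and 66.3 ± 2.49%. Among xenobiotic and antioxidant genes all members were intergenic: 63337 bp from Nfe2l2, which encodes Nrf2 (41.4 ± 7.85% in DSE mice), 11447 bp from Tiparp, a target of the aryl hydrocarbon receptor (39.3 ± 4.95%), and 9535 bp from Gclc, a glutathione synthesis enzyme (30.1 ± 3.51%).

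Of lung development genes, Foxa2, an airway epithelial transcription factor, had 2 intergenic members nearest to it. The one with the larger difference lay 149460 bp from the start site and had 0 methylated among 287 calls in the saline and OVA mice (which allows up to 1.05%) against 41.3, 31.7, 40.0 and 26.4% in DSE mice. Windows in an intron of Fgfr2, a receptor of branching growth factors, and of Gli2, a Hedgehog effector, began at intermediate levels and reached 67.4 ± 1.62% and 58.9 ± 4.19% in DSE mice. The promoter of Adam33, a metalloprotease gene linked to asthma, averaged 21.0 ± 3.71%, 17.7 ± 2.92% and 31.9 ± 3.13%. Windows in introns of Adcy9, an adenylate cyclase, and Prkg1, a cyclic GMP-dependent kinase, reached 45.4 ± 5.62% and 41.8 ± 6.79%.

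Repeated hits in a gene were uncommon. A member fell in or nearest to 1859 of 22329 genes, and 142 of these had at least 2 separate regions. With 3 regions each, Pde4d (206 windows measured), Fbxl17 (122), Ttc29 (118), Dpp6 (116), Camkmt (84), Wac (58), Akr1d1 (37) and Pard6g (30) were among the most hit.

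Promoter windows of cell type marker genes were described for 9 marker lists, and none was a member. Only 0.679% of all promoter windows were members and the lists hold 2 to 42 windows each, so nothing is read from this. In leukocyte marker promoters (42 windows) saline mice read 42.9 to 44.6%, OVA mice 33.5 to 37.2% and DSE mice 33.3 to 37.0%, so OVA and DSE mice overlapped below the saline mice. Macrophage (56.6 to 58.8%, 51.02 to 53.3% and 50.9 to 51.8%) and eosinophil markers (52.8 to 56.2%, 44.9 to 51.7% and 44.8 to 52.0%) were also lower in both than in saline mice. These rest on 3 of 7 macrophage and 3 of 4 eosinophil genes. Of 6 neutrophil markers only 1 gene had promoter windows. Its 2 windows were at 51.9 to 53.7%, 45.7 to 48.5% and 53.0 to 56.2%, so that DSE mice lay above OVA mice in this gene. Endothelial markers were at 18.3 to 20.3%, 21.02 to 23.8% and 19.9 to 21.1%, lung epithelial markers at 24.6 to 25.4%, 25.8 to 27.5% and 26.5 to 28.3%, and smooth muscle and fibroblast markers at 14.2 to 15.7%, 17.4 to 19.7% and 17.8 to 19.9%. T cell (67.4 to 70.8% over all mice) and B cell markers (38.1 to 41.4%) overlapped between saline and both other groups. Outside promoters, 3 members lay in Lcp1, and 2 each lay in intergenic DNA nearest to Kdr and to Col1a2. The part of cell mix in the members was not tested.

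At the threshold itself, the members with the smallest differences lay in Znhit6 and Hectd4, both 8.00 points above the higher of the other means. Their saline, OVA and DSE means were 45.6, 47.2 and 55.2% and 42.9, 43.7 and 51.7%. The windows just outside, near Gm11266 and in B930025P03Rik, fell short at 7.996 and 7.995 points.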

How the data were processed

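Lung DNA of 10 mice was read by SureSelect Methyl-seq. After trimming with cutadapt, the authors aligned the reads by Bismark to mm10 and tiled CpG calls with methylKit; the submitters' processing notes name versions 1.10, 0.19.0 and 1.0.0, and the methods other versions. The deposited counts are methylated, unmethylated and total calls per 1000 bp window, stepped by 500 bp, with no normalization.

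Percent methylation was 100 times methylated over total calls. Windows on the 19 autosomes with at least 20 calls in every mouse were kept. Calls summed over all deposited windows ran from 306656737 to 410836272 per mouse. The windows overlap, so a call can count 2 times in these sums. At 272 calls, the median in members, a share of 50% has a 95% Wilson interval of 44.1 to 55.9%, and at 20 calls of 29.9 to 70.1%, for counting error alone. Replicates are separate mice, and no pair agreed within sampling noise.

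The tests were a likelihood ratio test per window with Benjamini-Hochberg adjustment, and limma 3.58.1 (R 4.3.3) on log2 ratios of counts with a pseudocount of 1; numpy 2.4.6 and pandas 2.3.3 did the rest. Both were tested on simulated data for DSE versus OVA, with 200 of 20000 windows changed by 25 points: with spread between mice the likelihood ratio test recovered 100% but also called 177 unchanged windows, and limma recovered 52.5% and called 3. The F test used as an alternative recovered 0.5% there and called 0 unchanged windows. Features are from RefSeq GRCm38.p6, with promoters reaching 1000 bp to either side of a start site. Named were the 12 highest regions, the 8 highest promoter regions of protein-coding genes, the 5 with most windows, up to 3 per pathway list, and those at the threshold. Alternatives were other tests, call minimums, thresholds, tilings, promoter definitions and left-out mice. The members and lists were chosen with earlier results of these data known. Same-numbered mice of different groups correlated between -0.0284 and 0.0800 in their deviations from group means, so numbers were not taken as pairs. RNA from these mice was not analysed here.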

Additional observations from a re-analysis of the deposited data

Results flagged for a closer look

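Dixon's test was run on 47 sets of values of the 4 DSE mice, and 1 set stood out: in the Znhit6 window at the 8-point threshold DSE replicate 4 read 51.0%, while the other DSE mice read 56.4 to 56.9%. The saline and OVA mice there read 40.5 to 50.8%. Chance alone flags about 1 in 20 groups.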

How the results depend on the processing

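The count of members was 2332 as reported and 2496, 2044 and 2377 with at least 10 calls, at least 50 calls or every chromosome. It was 1413 at 10 points, 160 at 20 points, 1144 in windows that do not overlap, and 408 where DSE mice were not deeper, a setting chosen after seeing the data. Leaving out 1 mouse, which can only loosen the separation of the mice, gave 2384 to 3194. The promoter share was 16.5% with the window's midpoint alone, 26.3% with at least 50 calls and 34.1% where DSE mice were not deeper, beside 15.2, 21.1 and 24.2% of all windows under the same settings. For OVA versus saline, 2.74% of members were called, 0% by an F test scaled for overdispersion, 0% by limma and 15.5% with no minimum difference (0, 0 and 26.6% of all windows), with 2.62 to 4.07% on leaving out 1 mouse; at an unadjusted p under 0.05 the F test held 144 members (6.17%, beside 15.6% of all windows) and limma 258 (11.1%, beside 19.95%). For DSE versus OVA the F test called 0% and limma 8.28% (68.7% as reported, 59.5 to 70.5% on leaving out 1 mouse), and for DSE versus saline 0% and 46.8% (72.5%, 67.02 to 75.6%); limma called 0.0592 and 2.38% of all windows in the same direction. Unadjusted F-test p-values under 0.05 numbered 2089 and 2160, or 89.6 and 92.6%, beside 7.38 and 21.3% of all windows. Limma called 0% of the windows less than 500 bp from a member, against 0.453%. With the replicate number as a block, 2.83% of members were called for OVA versus saline, 67.3% for DSE versus OVA and 71.01% for DSE versus saline, which changed no call count by over 1.5 times. Depth limits single windows of 20 to 80 calls, such as Igsf21.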
